A study of Mus musculus with 16 samples.

Results

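Neurog3, Sox3, Rarg, Sohlh1, Sohlh2 and Kit mark the path of a male germ cell from stem cell to differentiating spermatogonium. They were listed by name for that role, and all 6 were found among the 16383 genes of the expression table. The measurements are mRNA sequencing of undifferentiated spermatogonia, the mitotic germ cells that include the stem cells of the testis, sorted from adult mice. Each of the 4 groups held 4 libraries. Every mouse had received busulfan, an alkylating agent toxic to proliferating germ cells, as 1 injection of 10 mg/kg, and cells were taken 10 days later. From day 3 the mice were injected each day for 7 days with vehicle holding 10% DMSO or with 2.5 mg/kg PD0325901, an inhibitor of MEK1 and MEK2, the kinases directly upstream of ERK.

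Both treatments were given to mice titled wild type and to mice with a germline knockout of Spry4, a feedback inhibitor of growth factor signalling to ERK. The groups are named here WT_vehicle, WT_PD, KO_vehicle and KO_PD, and a library by its group and replicate number. The label Spry4ff stands in the column names of the wild type and GCRT_Spry4KO in those of the knockout, so loss of Spry4 and whatever GCRT names cannot be told apart. No source used here gives the driver of the knockout, the surface markers of the sort or the number of mice behind a library. The p-values therefore measure the spread between these libraries.

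Spermatogenesis rests on stem cells that express Gfra1, the receptor part that binds the niche factor GDNF. Progenitors leave that state and turn on Neurog3, Sox3 and Rarg while they remain undifferentiated. Retinoic acid then drives the transition to differentiating spermatogonia, which display the receptor tyrosine kinase KIT and depend on its ligand from Sertoli cells. SOHLH1 and SOHLH2 are germ cell transcription factors needed for that transition and for Kit expression.

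The promoters are shown first because 3 of the 6 genes encode basic helix-loop-helix factors, proteins that bind the E-box, CANNTG. The sequences are RefSeq's for GRCm38.p6, upstream of the annotated start, 5′ to 3′ on the strand of the gene, with every E-box in capitals. They were found for 5 of the 6 genes, and Sox3 was not matched. The 4 shown are Sohlh1, with the most E-boxes of those found, Kit, with none, and the progenitor genes Neurog3 and Rarg, whose promoter 1 is given.
Sohlh1, chr2:25847249-25847498, minus strand: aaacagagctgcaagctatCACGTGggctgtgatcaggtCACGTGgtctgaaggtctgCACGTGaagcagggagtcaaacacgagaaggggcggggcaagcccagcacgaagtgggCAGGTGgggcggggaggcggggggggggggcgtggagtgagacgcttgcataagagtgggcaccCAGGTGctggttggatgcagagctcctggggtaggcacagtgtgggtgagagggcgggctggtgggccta
Kit, chr5:75574737-75574915, plus strand: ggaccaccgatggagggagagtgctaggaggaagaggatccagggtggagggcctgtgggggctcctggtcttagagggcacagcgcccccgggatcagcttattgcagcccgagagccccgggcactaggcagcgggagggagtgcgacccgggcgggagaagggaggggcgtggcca
Neurog3, chr10:62132840-62133089, plus strand: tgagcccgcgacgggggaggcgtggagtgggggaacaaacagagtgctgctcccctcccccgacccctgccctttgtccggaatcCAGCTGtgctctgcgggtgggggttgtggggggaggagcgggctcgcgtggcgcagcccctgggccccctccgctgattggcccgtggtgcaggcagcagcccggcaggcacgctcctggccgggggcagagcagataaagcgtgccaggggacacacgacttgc
Rarg, chr15:102257523-102257772, minus strand: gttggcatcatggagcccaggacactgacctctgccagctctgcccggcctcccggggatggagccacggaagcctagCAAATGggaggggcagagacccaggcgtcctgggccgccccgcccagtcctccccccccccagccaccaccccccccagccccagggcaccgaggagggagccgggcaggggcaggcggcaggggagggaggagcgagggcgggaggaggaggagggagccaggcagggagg

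The Sohlh1 stretch held 5 E-boxes in 250 bases. The 3 farthest from the start, the first and last of them at 231 and 192 bases before it, are the palindrome CACGTG, and those at 134 and 70 bases are CAGGTG. Neurog3 held 1, the CAGCTG at 165 bases, and Rarg promoter 1 held CAAATG at 172 bases. A start of Rarg within the gene (chr15:102246501-102246750) was preceded by 2 E-boxes, and the 234 bases searched for Sohlh2 (chr3:55181794-55182027) held 1. No E-box was found in the 179 bases searched for Kit, a statement about these letters in this window alone. For Sohlh2 and Kit the search stopped at the start given by GENCODE, another annotation, which lies before the RefSeq start. The bases between those starts were left out, so these windows are shorter than the 250 bases behind the shares below.

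Both strands were searched, and CANNTG and CACGTG each read the same on both. Of 32851 promoters of 250 bases in the table, 66.2% held at least 1 CANNTG and 1.15% held at least 5. CACGTG, which was searched for after the Sohlh1 sequence had been seen, occurred in 6.02% of them and 3 or more times in 20. AGGTCA, the core hexamer of retinoic acid response elements, occurred in 14% of promoters, Sohlh1 and Rarg promoter 1 among them, and the Sohlh1 match overlaps the middle CACGTG. The SOX core AACAAT, present in 9.42% of all promoters, was found in none of the stretches searched for the 5 genes. These matches are descriptions of sequence, and binding was not measured.

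Levels were given as FPKM, which divides the fragments of a gene by its length and by the size of the library, so genes can be set side by side. The divisors of these values, recovered from their smallest steps, ran from 23361130 to 36613635, and 12257 to 12805 genes per library reached 1 FPKM. Spry4, the targeted gene, was 22.1 ± 1.66 FPKM (SD, n = 4) in WT_vehicle, 21.5 ± 4.89 in WT_PD, 11.0 ± 3.13 in KO_vehicle and 12.9 ± 4.71 in KO_PD. The library labelled KO_PD 4 held 19.3 FPKM, above WT_PD 1 at 15.9 and near WT_PD 2 at 19.6. Its Spry4 level thus does not set it apart from the wild-type libraries. KO_PD 1 to 3 held 13.0, 8.23 and 11.0 FPKM. The other knockout libraries lay below every wild-type library. The labelled cell type was checked against Zbtb16, a factor of undifferentiated spermatogonia, at 85.6 to 125 FPKM, and Ddx4, a germ cell RNA helicase, at 68.8 to 144 FPKM. All 7 peritubular markers were present too, at a sum of 1152 to 11893 FPKM, with the smooth muscle actin gene Acta2 at 367 to 5095 FPKM. KO_PD 4 had the highest peritubular sum of the knockout libraries, 9740 FPKM. WT_PD 1 and WT_PD 2, set beside it above, had the lowest of wild type, 1489 and 1152 FPKM. Whether the Spry4 level of a library goes with its peritubular RNA was not tested. The 8 spermatid markers summed to 7.70 to 130 FPKM in 15 libraries and to 2816 FPKM in KO_vehicle 3, where the protamine gene Prm1 stood at 739 FPKM. Macrophage markers summed to 2.48 to 7.52 FPKM and endothelial markers to 4.36 to 13.7 FPKM, and the mast cell markers, of another KIT-bearing cell, were not analysed here. In bulk RNA, fewer cells of a type and less RNA per cell cannot be told apart.

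The order of the levels was nearly fixed. Sohlh1 averaged 61.7 FPKM over the 16 libraries, Sox3 47.4, Sohlh2 25.8, Rarg 12, Neurog3 4.84 and Kit 2.47. Sohlh1 thus lay above 97.0% of the listed genes in mean level, while Kit, the receptor of the next stage, lay above 36.3% of them. The order ran from Sohlh1 to Kit in this sequence in 15 libraries, and in WT_PD 4 Kit stood above Neurog3. Sohlh1 and Sox3 overlapped in their ranges over libraries, at 46.2 to 74.1 and 36.6 to 67.4 FPKM, and so did Neurog3 and Kit. Each other pair of neighbours in the order kept apart over all 16 libraries.

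Neurog3, a basic helix-loop-helix factor of early progenitors (ENSMUSG00000044312, GRCm38 chromosome 10, 62133090 to 62134763, plus strand), varied, with Kit, the most within groups. In WT_vehicle its level was 4.17, 4.27, 2.96 and 3.25 FPKM in replicates 1 to 4, and in WT_PD 7.03, 7.09, 3.43 and 3.83. In KO_vehicle it was 6.62, 4.01, 3.83 and 2.27 FPKM, and in KO_PD 8.19, 4.51, 6.14 and 5.87. Inhibitor-treated libraries lay mostly above those with vehicle, but the groups overlapped in both genotypes. Group means were 3.66 ± 0.656 FPKM in WT_vehicle, 5.34 ± 1.99 in WT_PD, 4.18 ± 1.80 in KO_vehicle and 6.18 ± 1.52 in KO_PD (SD, n = 4). The gene rested on 109 to 375 reads per library, a counting error of 5.16% to 9.58%, against a spread of 17.9% to 43.1% between libraries of a group.

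Replicates 1 and 2 carry the lower 8 library numbers in the column names and replicates 3 and 4 the higher 8, with 2 libraries of every group in each set. Neurog3 differed by -0.50 on the log2 scale between higher and lower numbers (SE 0.15, limma adjusted p = 0.0510), which just missed the threshold of 0.05. Over all genes tested, 11.8% passed for this term, so the numbers go with differences in many genes. No source used here says what they stand for. The other 5 genes differed by -0.08 to 0.05 between the 2 sets.

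Sox3, an HMG-box factor of progenitors on the X chromosome (ENSMUSG00000045179, 60891366 to 60893430, minus strand), was abundant. It read 47.7, 43.9, 46.3 and 37.1 FPKM in WT_vehicle and 60.2, 57.7, 37.0 and 53.2 in WT_PD. In KO_vehicle it read 38.8, 47.9, 49.1 and 36.6 FPKM, and in KO_PD 39.7, 46.6, 67.4 and 48.7. In wild type, 3 inhibitor-treated libraries stood above every vehicle library and WT_PD 3 stood below all of them. WT_PD 3 was also the library with the highest peritubular sum, 11893 FPKM.

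Rarg, which encodes the retinoic acid receptor of progenitors (ENSMUSG00000001288, chromosome 15, 102234938 to 102257517, minus strand), had a spread of 6.22% to 17.0% between libraries of a group. Its levels were 12.4, 12.8, 12 and 9.28 FPKM in WT_vehicle, then 13.6, 11.7, 12.9 and 14.9 in WT_PD. KO_vehicle gave 10.0, 11.1, 10.1 and 9.57 FPKM and KO_PD gave 10.4, 11.7, 15.2 and 14.1. The 2 knockout groups met only at KO_PD 1, which lay below KO_vehicle 2. The KO_vehicle group was the tightest, at 10.2 ± 0.633 FPKM (SD, n = 4).

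Sohlh1 (ENSMUSG00000059625, chromosome 2, 25842995 to 25847248, minus strand) and Sohlh2 (ENSMUSG00000027794, chromosome 3, 55182028 to 55209957, plus strand) encode partner factors. Sohlh1 read 65.4, 61.4, 65.7 and 48.3 FPKM in WT_vehicle, 73.0, 62.7, 54.9 and 69.4 in WT_PD, 54.0, 60.8, 63.0 and 46.2 in KO_vehicle, and 59.6, 69.0, 74.1 and 60.1 in KO_PD. Sohlh2 read 25.8, 25.4, 24.3 and 28.2 FPKM in WT_vehicle, 27.1, 25.8, 24.4 and 25.9 in WT_PD, 26.7, 27.4, 27.3 and 19.9 in KO_vehicle, and 23.4, 28.4, 28.2 and 23.8 in KO_PD. The 4 group means of Sohlh2 lay between 25.3 and 25.9 FPKM, a narrower band than the 56.0 to 65.7 FPKM of Sohlh1. Replicate 4 was the lowest Sohlh1 library in both vehicle groups.

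Kit (ENSMUSG00000005672, chromosome 5, 75574916 to 75656722, plus strand) was low in every group. It read 2.55, 2.82, 2.06 and 1.95 FPKM in WT_vehicle and 1.97, 2.36, 2.34 and 4.50 in WT_PD. In KO_vehicle it read 2.03, 2.31, 3.29 and 1.46 FPKM, and in KO_PD 2.49, 2.42, 3.19 and 1.85. All groups overlapped, and the highest value came from WT_PD 4 alone. That library also held the highest Stra8, a retinoic acid-induced gene of the transition to meiosis, at 33.8 FPKM. Its peritubular sum was 7795 FPKM and its spermatid sum 8.71 FPKM. The exons of Kit cover 8911 bases when merged over its annotated transcripts, so its low level still rested on 374 to 1461 reads per library. FPKM divides by length, so the place of Kit below Neurog3 depends on the length taken. The transcripts in use were not determined.

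**Figure D1:**
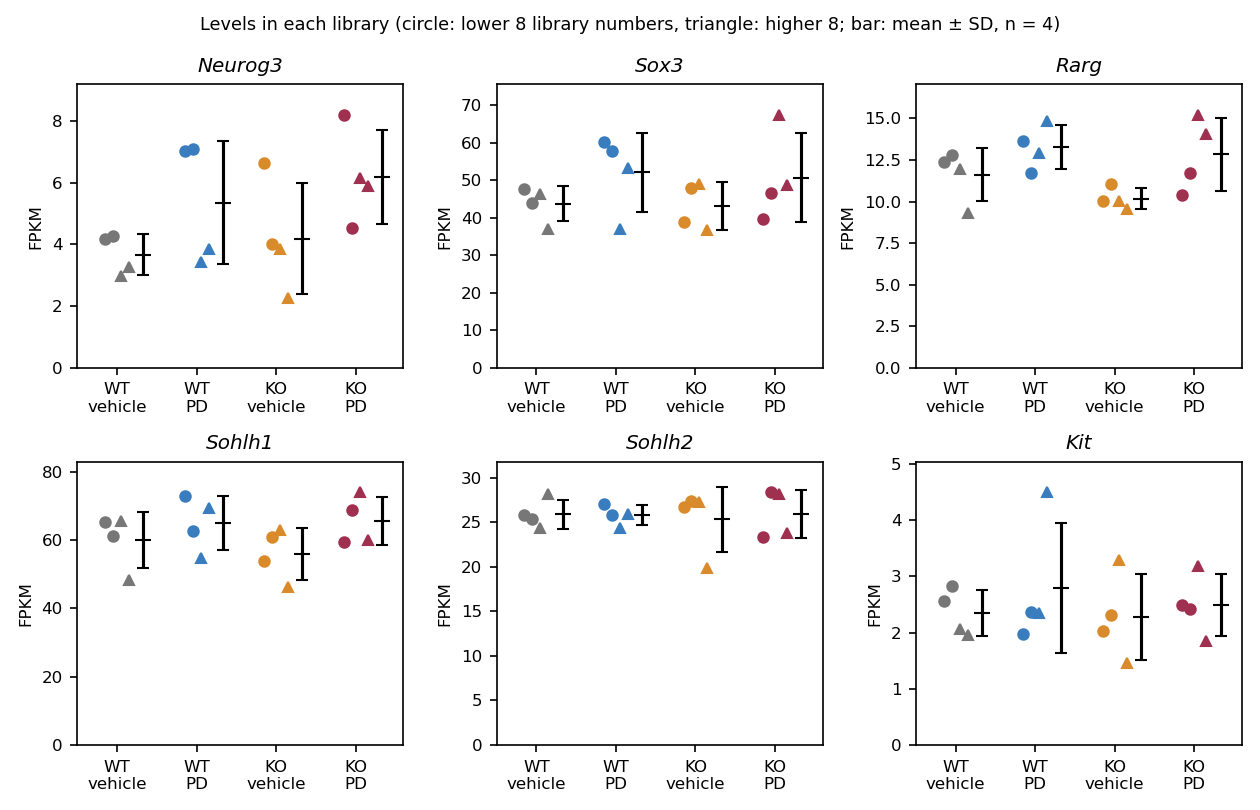
Level of each gene in FPKM (vertical axes, from 0) in the 16 libraries by group, with circles for the lower and triangles for the higher 8 library numbers and black bars for mean ± SD (n = 4). Inhibitor-treated libraries (PD) overlap those with vehicle for each gene, and Sohlh2 has the flattest group means, 25.3 to 25.9 FPKM.

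1 library stood low throughout. KO_vehicle 4 had the lowest of the 16 values for Neurog3, Sox3, Sohlh1, Sohlh2 and Kit, and the second lowest for Rarg, where WT_vehicle 4 was lower. It also had the lowest Ddx4, 68.8 FPKM, and the lowest Stra8, 10.3 FPKM. It held Zbtb16 at 103 FPKM (median of the 16 libraries 120) and Gfra1 at 46.0 FPKM (median 40.8). Its mean log2 level over the stem cell list was the highest of the 16, 4.23, against 3.16 in WT_PD 4, the lowest. Its peritubular sum was 7079 FPKM. KO_PD 3 had the highest Sox3, Rarg and Sohlh1.

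The first comparison asks what loss of Spry4 does. No member passed an adjusted p of 0.05 under vehicle or under inhibitor, in the limma fit over 12907 genes, which called 0% of genes in either comparison. At an unadjusted p under 0.05 it listed 1.94% of genes under vehicle and 4.69% under inhibitor, none of them a member. limma voom on recovered reads also called 0 genes in each, with 230 and 669 genes under 0.05. All differences that follow are on the log2(FPKM + 0.5) scale, knockout minus wild type or inhibitor minus vehicle.

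Under vehicle the progenitor genes differed between genotypes by 0.10 for Neurog3 (95% interval -0.50 to 0.71), -0.03 for Sox3 (-0.40 to 0.35) and -0.17 for Rarg (-0.44 to 0.09). Sohlh1 differed by -0.10 (-0.38 to 0.17), Sohlh2 by -0.04 (-0.26 to 0.18) and Kit by -0.07 (-0.56 to 0.43). Under inhibitor the 6 differences ran from -0.10 for Kit to 0.23 for Neurog3, and without KO_PD 4 from -0.10 for Rarg to 0.24 for Neurog3, with Kit at 0.01 and 0 genes of the 6 called. The intervals leave room for a change of Neurog3 or Kit well beyond the values seen, and are tightest for Sohlh2. The 6 genes had a median of -0.04 over both treatments, with 1 of 6 higher in the knockout, beside -0.02 and 44.1% over all genes. Over both treatments limma called 0% of genes and listed 4.35% at an unadjusted p under 0.05, again none of the 6.

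The genotype difference of Sox3 was also taken within each set of library numbers. Averaged over treatments it was -0.27 among the lower 8 numbers (SE 0.09) and 0.20 among the higher 8 (SE 0.19), on opposite sides of 0. The test of the inequality gave 0.47 (SE 0.23, unadjusted p 0.0704, limma adjusted p = 0.692) and did not pass, and the pooled value was -0.03 (-0.30 to 0.23).

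The second comparison asks what MEK inhibition does. No member passed the threshold in wild type or in the knockout, where limma called 0% of genes in both and listed 0.891% and 2.96% at an unadjusted p under 0.05. With voom the calls were again 0, with 117 and 401 genes under 0.05. In wild type Neurog3 differed by 0.44 (SE 0.28), Sox3 by 0.23 (SE 0.17), Rarg by 0.19 (SE 0.12), Sohlh1 by 0.11, Kit by 0.16 and Sohlh2 by -0.01. In the knockout the values were 0.57 for Neurog3 (SE 0.28), 0.21 for Sox3, 0.31 for Rarg (SE 0.12), 0.23 for Sohlh1, 0.13 for Kit and 0.04 for Sohlh2. Without KO_PD 4 they were 0.58, 0.22, 0.26, 0.27, 0.24 and 0.08 in the same order. The wild-type and knockout comparisons share no library.

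Rarg in the knockout had the smallest p of these, 0.0243 before adjustment and 0.968 after it in limma. Without KO_PD 4 the unadjusted p was 0.0692. The inhibitor value was the higher in 15 of 16 pairs of knockout libraries, and the two-sided exact permutation p was 0.0571. This was the smallest of 24 such tests over the 6 genes, and 4 against 4 libraries allow no p under 0.0286. The Kit difference in wild type rested on WT_PD 4, without which it was -0.05.

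Over both genotypes, which uses all 16 libraries, the inhibitor difference was 0.50 for Neurog3 (SE 0.20, 95% interval 0.08 to 0.93) and 0.25 for Rarg (SE 0.09, 0.06 to 0.44). It was 0.22 for Sox3 (-0.04 to 0.49), 0.17 for Sohlh1 (-0.02 to 0.37), 0.15 for Kit (-0.20 to 0.50) and 0.02 for Sohlh2 (-0.14 to 0.17). The Kit value was 0.04 without WT_PD 4. Without KO_PD 4, Neurog3 was 0.51 and Rarg 0.23. Neurog3 and Rarg had unadjusted p of 0.0243 and 0.0117, but limma called 0% of genes and both adjusted p were 1.0. Of all genes, 1.84% were under 0.05 before adjustment, 238 in number, and by voom 248. All 6 genes had a difference above 0, as had 54.4% of all genes. Their median was 0.20, beside 0.01 over all genes.

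**Figure D2:**
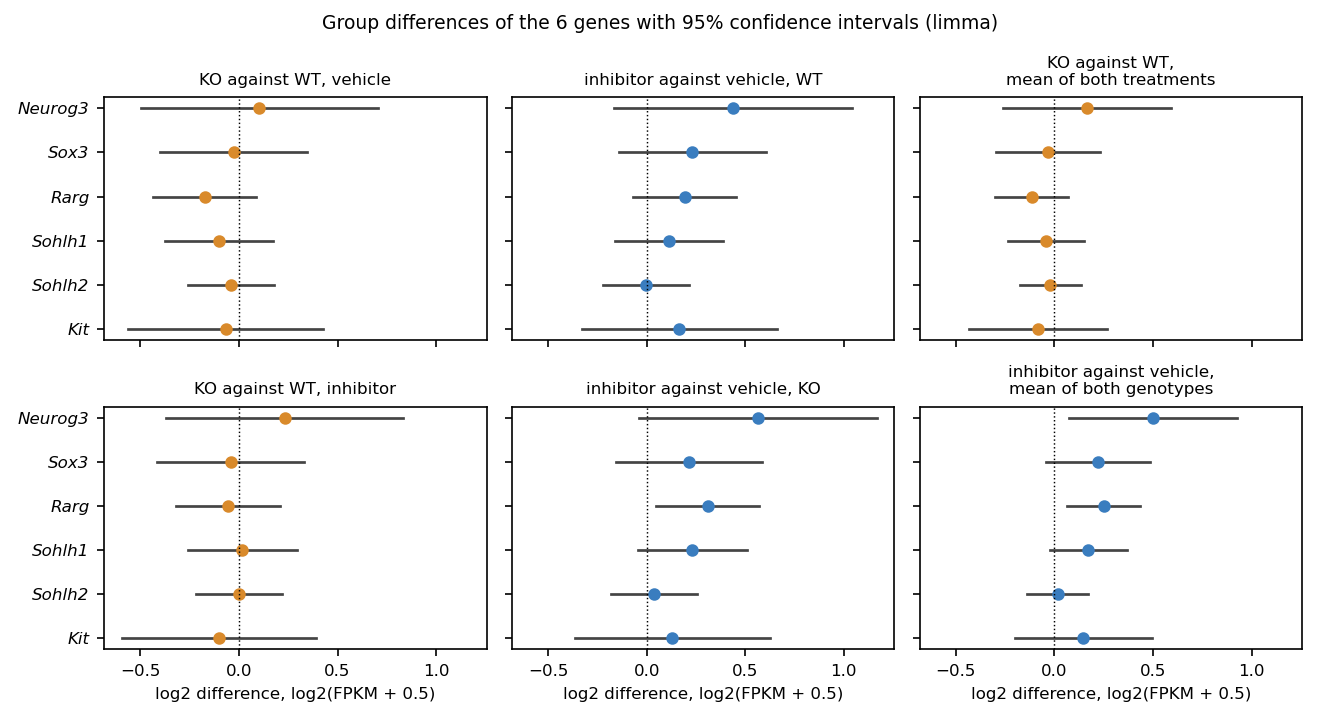
Differences of the 6 genes on the log2(FPKM + 0.5) scale (horizontal axes) for genotype (orange) and inhibitor (blue), with lines for the 95% confidence intervals from limma. Genotype points run from -0.17 for Rarg under vehicle to 0.23 for Neurog3 under inhibitor. The inhibitor points over both genotypes run from 0.02 for Sohlh2 to 0.50 for Neurog3.

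The inhibitor difference was then taken within each set of library numbers. Averaged over genotypes, Neurog3 was 0.45 among the lower 8 numbers (SE 0.21) and 0.55 among the higher 8 (SE 0.16). The genotypes went opposite ways between the sets. Wild type had 0.68 among the lower numbers (SE 0.30) and 0.20 among the higher (SE 0.22). The knockout had 0.22 (SE 0.30) and 0.91 (SE 0.22). The Neurog3 interaction was -0.46 among the lower numbers (SE 0.42) and 0.71 among the higher (SE 0.31). In wild type with lower numbers, both inhibitor libraries (7.03 and 7.09 FPKM) lay above both vehicle libraries (4.17 and 4.27), and with higher numbers 3.43 and 3.83 stood beside 2.96 and 3.25. Rarg differed by 0.03 among the lower numbers (SE 0.08) and by 0.47 among the higher (SE 0.10). The test of that inequality gave 0.43 (SE 0.13, unadjusted p 0.00537, limma adjusted p = 0.384), so it did not pass the threshold over all genes. Kit was -0.06 among the lower and 0.35 among the higher numbers (SE 0.30), where WT_PD 4 lies.

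**Figure D3:**
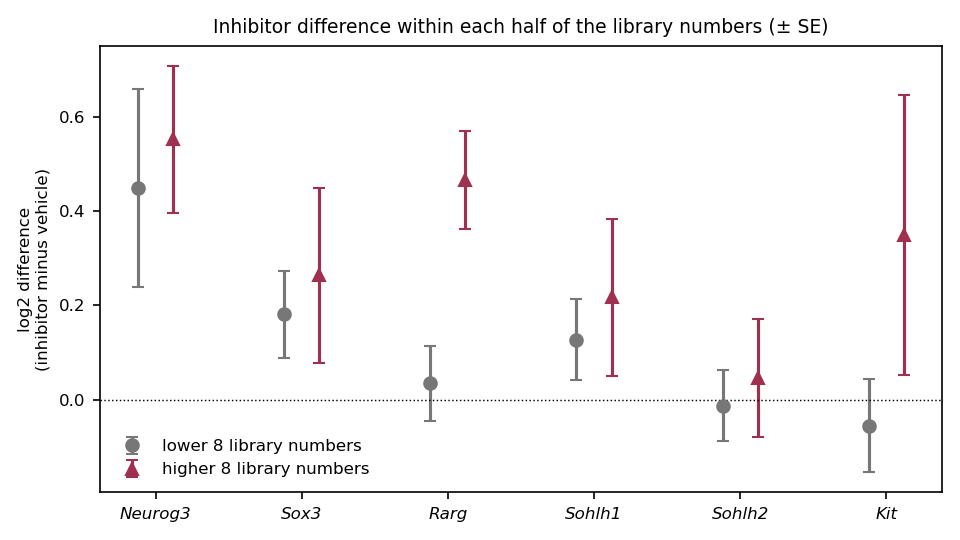
Inhibitor minus vehicle difference over both genotypes (vertical axis, log2 scale, ± SE) among the lower 8 (grey circles) and higher 8 (red triangles) library numbers. The Neurog3 means over genotypes lie close together, at 0.45 and 0.55, though each genotype differed between the sets (not shown). Those of Rarg lie apart, at 0.03 and 0.47.

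The interaction, which asks whether the inhibitor difference depends on genotype, was 0.13 for Neurog3 (-0.72 to 0.98), -0.02 for Sox3 (-0.54 to 0.51), 0.12 for Rarg (-0.25 to 0.49), 0.12 for Sohlh1 (-0.27 to 0.51), 0.04 for Sohlh2 (-0.26 to 0.35) and -0.03 for Kit (-0.73 to 0.66). limma called 0% of genes for it and listed 1.71% at an unadjusted p under 0.05, none of them among the 6. With voom 0 genes were called.

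The other genes of the pathway were given by lists over the same comparison of inhibitor and vehicle in both genotypes, and no gene of these lists passed the threshold. Over all genes 54.4% were higher, 1.84% had an unadjusted p under 0.05 and the median was 0.01. The stem cell list had 13 tested genes, all lower with inhibitor, 6 of them at an unadjusted p under 0.05, with a median of -0.24. By genotype, 13 of 13 were lower in wild type (5 under 0.05, median -0.26) and 11 of 13 in the knockout (2 under 0.05, median -0.20). Of all genes, 0.891% and 2.96% were under 0.05 in these comparisons. Over both genotypes the furthest members were T, a mesodermal transcription factor, at -0.59, and Shisa6, a marker of stem cells, at -0.53. Gfra1 was -0.21 and the RNA-binding repressor Nanos2 -0.03. Nanos2 averaged 5.27 FPKM in WT_vehicle and 4.51 in WT_PD, but 4.63 in KO_vehicle and 5.14 in KO_PD. In knockout against wild type the same list, over the same 16 libraries, had 12 of 13 genes higher, 9 of 13 at an unadjusted p under 0.05 and a median of 0.31, beside 44.1% higher, 4.35% under 0.05 and a median of -0.02 over all genes. The gene of this list that was lower in the knockout was Gfra1, at -0.16 under vehicle and -0.20 under inhibitor. Nanos2 was -0.17 under vehicle and 0.19 under inhibitor. The progenitor list, which includes Neurog3, Sox3 and Rarg, had 7 of 9 genes higher with inhibitor and a median of 0.10. By genotype it had 8 of 9 higher and a median of 0.19 in wild type, but 4 of 9 higher and a median of -0.02 in the knockout. Among its other genes the stress-response gene Ddit4 was 0.25 (SE 0.19), and the RNA-binding protein genes Nanos3 and Lin28a were 0.10 and 0.06. The 4 genes higher in the knockout were Neurog3, Sox3, Rarg and Ddit4. Nanos3 averaged 13.2 FPKM in KO_vehicle and 13.0 in KO_PD, and Lin28a 65.3 and 64.0 FPKM.

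The differentiation list, which holds Kit, Sohlh1 and Sohlh2, had 11 of 12 genes higher with inhibitor and a median of 0.11, with 8 of 12 in wild type and 11 of 12 in the knockout. Stra8 was 0.27 (SE 0.19), the retinoic acid-binding protein gene Crabp1 0.25 (SE 0.11) and the DNA methyltransferase gene Dnmt3b 0.12, while the synaptonemal complex gene Sycp3 was -0.21. The 6 retinoic acid receptor genes all lay above 0, with a median of 0.06, and 4 of 6 did in wild type. Rarg was the farthest at 0.25, with Rara and Rarb at 0.06 and Rxra at 0.01. Among 7 basic helix-loop-helix partners and inhibitors, 5 were higher over both genotypes, 2 in wild type and 4 in the knockout. The inhibitor Id1 was -0.37 in wild type (SE 0.45) and 1.06 in the knockout (SE 0.45), with an interaction of 1.43 (unadjusted p 0.0404, limma adjusted p = 1.0). The KIT list of ligand and signal carriers had 11 of 16 higher, with a median of 0.03. The ligand gene Kitl was 0.11 (SE 0.33) and ranged from 5.04 to 33.5 FPKM over libraries. In the same comparison all 7 tested spermatid markers were lower, with a median of -0.70, but without KO_vehicle 3 the median was 0.05 and 5 of 7 were higher. The peritubular markers went opposite ways by genotype, with 0 of 7 higher and a median of -0.48 in wild type and 7 of 7 higher and a median of 0.69 in the knockout. Their interaction had a median of 1.18 with 7 of 7 above 0, in the same directions as Id1. Whether the Id1 values go with peritubular RNA was not tested. Over both genotypes 6 of 7 were higher, with a median of 0.11, and without KO_vehicle 3 none was, with a median of -0.10. With the mean levels of these 2 lists as terms in the fit, the 6 differences over both genotypes were 0.51 for Neurog3, 0.21 for Sox3, 0.23 for Rarg, 0.17 for Sohlh1, 0.02 for Sohlh2 and 0.18 for Kit.

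**Figure D4:**
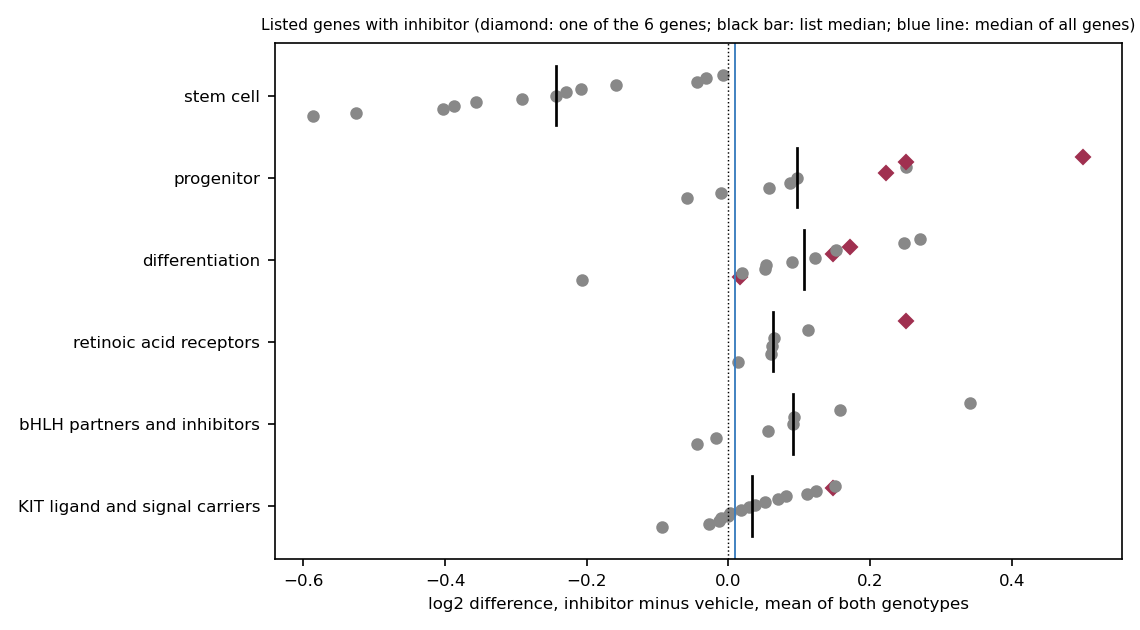
Inhibitor minus vehicle difference over both genotypes (horizontal axis, log2 scale) for each tested gene of 6 lists, with red diamonds for the 6 genes, black bars for list medians and a blue line for the median of all genes. The stem cell list lies below 0 throughout, and the progenitor and differentiation lists have medians of 0.10 and 0.11.

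Levels were also compared from library to library, over all 16. Of 15 pairs among the 6 genes, 3 passed an adjusted p of 0.05, and they join Sox3, Sohlh1 and Rarg. Sox3 and Sohlh1 had r 0.851 and rho 0.812 (permutation p = 2e-05 and 0.00019, adjusted over 15 pairs 0.0003 and 0.00285). Leaving out the 2 libraries farthest from the Sox3 median gave 0.808, and r was 0.736 among the lower and 0.916 among the higher library numbers. Rarg and Sohlh1 had r 0.728 and rho 0.676 (permutation p = 0.00131 and 0.00491, adjusted 0.00983 and 0.0368), with 0.593 without the 2 farthest and 0.811 and 0.765 in the lower and higher sets. Sox3 and Rarg had r 0.678 and rho 0.585 (permutation p = 0.00408 and 0.0191), which after adjustment passed for r (0.0204) but not for rho (0.0954). It was 0.518 without the 2 farthest libraries and 0.706 and 0.700 in the 2 sets. With each group's mean removed, r was 0.83, 0.623 and 0.601 for the 3 pairs.

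Sohlh1 and Sohlh2, whose proteins act together, had r 0.499 and rho 0.388 (permutation p = 0.050 and 0.137, adjusted 0.133 and 0.269), with 0.366 and 0.501 in the lower and higher sets and 0.483 without the 2 farthest libraries. Sohlh1 and Kit had r 0.586 and rho 0.562 (permutation p = 0.0179 and 0.0256, adjusted 0.0673 and 0.0960), which was -0.07 among the lower and 0.751 among the higher numbers and 0.363 without the 2 farthest. Neurog3 and Kit had r 0.114 and rho 0.153 (permutation p = 0.674 and 0.570, adjusted 0.674 and 0.658), with -0.48 and 0.397 in the lower and higher sets and -0.18 without the 2 farthest. Neurog3 passed with none of the other 5 genes.

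None of the 12 relations of the 6 genes with the peritubular and spermatid lists passed after adjustment. Sox3 with the peritubular list had the smallest p by r, at r -0.49 and rho -0.49 (permutation p = 0.0540 and 0.0552, adjusted 0.415 and 0.240). It was -0.41 without the 2 farthest libraries, and -0.89 among the lower against -0.28 among the higher library numbers. Sohlh2 with the same list had the smallest p by rho, at r -0.46 and rho -0.54 (permutation p = 0.0697 and 0.0361, adjusted 0.415 and 0.240), with -0.51 without the 2 farthest libraries and -0.29 and -0.49 in the lower and higher sets. Rarg was 0.19.

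**Figure D5:**
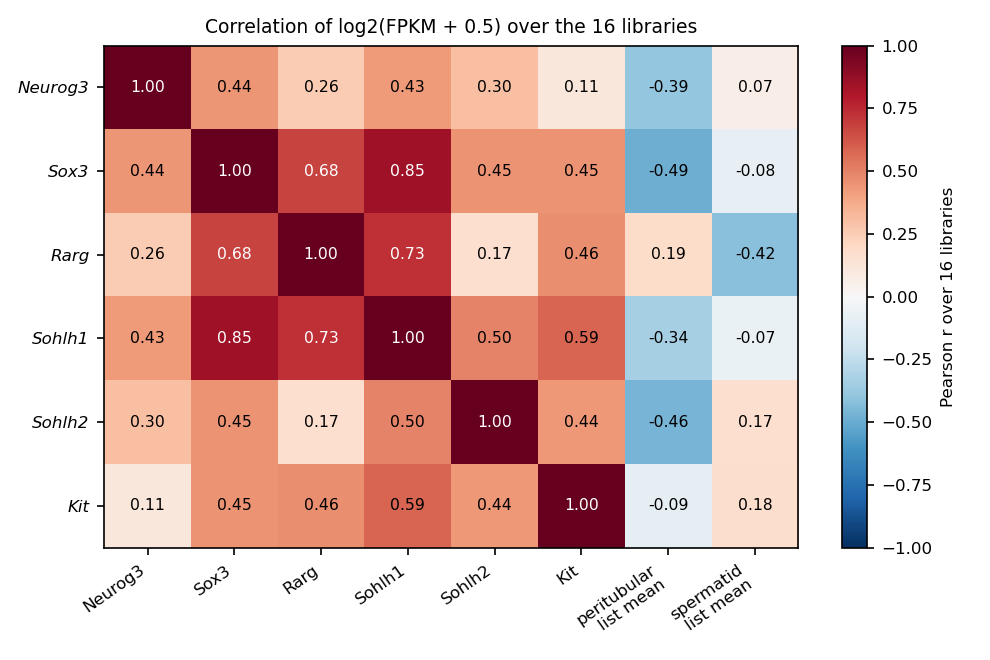
Pearson r of log2(FPKM + 0.5) over the 16 libraries between the 6 genes, and of each with the mean of the peritubular and spermatid lists (colour scale from -1 to 1). The block of Sox3, Rarg and Sohlh1 stands out with r of 0.851, 0.728 and 0.678.

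The genes most like each of the 6 were sought among 12092 tested genes by Pearson r over the 16 libraries, as a description without a test. Neurog3 was nearest to Rnaseh1 (0.787), Camkk2 (0.777) and the antisense RNA Appbp2os (0.775). Sox3 was nearest to Nol6 (0.917), Sox10 (0.916) and Uchl1 (0.865), a ubiquitin hydrolase abundant in spermatogonia, and Sohlh1 came at rank 10. Rarg was nearest to the proteasome activator subunit genes Psme2 (0.883) and Psme1 (0.869), and then Ing2 (0.851). Sohlh1 was nearest to Igfbp6 (0.912), the histone methyltransferase gene Ehmt2 (0.904) and Uchl1 (0.890). Sohlh2 was nearest to Ska1 (0.843), Xlr5b (0.786) and Ska3 (0.780), and Ska1 and Ska3 encode parts of one kinetochore complex. Kit was nearest to Stra8 (0.765), Esx1 (0.765) and Ago4 (0.753), and its rho with Stra8 was 0.803. Stra8 and Kit thus shared their extremes, both lowest in KO_vehicle 4 and both highest in WT_PD 4.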

How the data were processed

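mRNA was sequenced in 16 libraries with a stranded kit, per the labels' protocols. The deposited values are FPKM computed by the authors, per the labels, and the submitters' processing notes list FastQC, STAR 2.7.10a, edgeR 4.0.14 and the builds mm10 and GRCm39, without their roles. No source used here gives the counter, the strand setting or the scaling. Symbols were matched to GENCODE M21 (GRCm38) for positions and exon lengths, 15771 of 16383 (96.3%) to a unique symbol.

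A gene's FPKM times exon length times the right divisor must be a whole number of reads. Divisors estimated this way put 93.0% to 94.3% of values under 100 reads within 0.1 of a whole number, and gave 23.4 to 36.6 reads per kilobase at 1 FPKM. Whether they hold scaling as well as depth was not tested.

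limma 3.58.1 in R 4.3.3 was fitted to log2(FPKM + 0.5) with 1 mean per group over all 16 libraries and a variance trend. The 12907 genes with at least 1 FPKM in at least 4 libraries were tested (3476 were left out), with Benjamini-Hochberg adjustment over them and a threshold of 0.05. This scale understates changes of low genes. All 6 genes passed the filter. Single values were compared with two-sided exact permutation tests, and correlations with 100000 permutations, in Python 3.11.15 with SciPy 1.17.1. The scripts were tested on simulated data. Alternatives were 2 other pseudocounts, no filter, scaling between libraries, the compared groups alone, a replicate block, a library number term, other-cell terms, voom on recovered reads, and each library left out. Terms and fits by set of library numbers beyond these, and the marker lists without KO_vehicle 3, were added after the data had been seen.

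The 6 genes and the gene lists were chosen with earlier results of these data known. Named were the 6 genes, reference genes of stem, germ and other cells, and the 3 genes most like each of the 6 in r, predicted genes and pseudogenes left out. Other genes named from a list, and single libraries, were chosen after their values were seen. Protein sequences were not used here.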

Additional observations from a re-analysis of the deposited data

Results flagged for a closer look

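The values of each gene in each group of 4 libraries, 24 sets in all, were searched for a highest or lowest library whose gap to its nearest neighbour took more of the whole range than Dixon's 95% critical value for 4 libraries. Chance alone gives about 1 in 20 such sets, and 2 were found. Sohlh2 in KO_vehicle 4 was 19.9 FPKM, and the gap took 0.907 of the range of its group. That library was also the lowest of the 16 for Neurog3, Sox3, Sohlh1 and Kit, with Ddx4 at 68.8 FPKM and Zbtb16 at 103 FPKM. Kit in WT_PD 4 was 4.50 FPKM, and the gap took 0.848 of the range. Stra8 was highest in the same library, at 33.8 FPKM, while its Sohlh2, 25.9 FPKM, lay within the range of the group. The causes were not tested.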

How the results depend on the processing

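limma called 0 genes under every alternative listed above, so no call of the 6 genes changed. The lowest adjusted p of any of them under these alternatives was 0.450. The fits within a set of library numbers and the tests between the sets are not among them, and held lower values, such as limma adjusted p = 0.384 for the Rarg inequality. Of 840 values of the 42 member differences, 781 kept their direction and 59 turned it. Settings other than a left-out library turned 4 values. With peritubular and spermatid list means as terms, Neurog3 in knockout against wild type under vehicle was -0.032, Sox3 under inhibitor 0.079 and the Sox3 interaction 0.18. With voom, Sohlh2 in knockout against wild type under inhibitor was -0.00121. Leaving out 1 library turned 55 values, in 22 differences. For the genotype difference under vehicle it gave Neurog3 -0.12 to 0.33, Sox3 -0.10 to 0.048, Sohlh2 -0.084 to 0.068 and Kit -0.23 to 0.087. For the genotype difference under inhibitor it gave Sox3 -0.20 to 0.064, Rarg -0.14 to 0.036, Sohlh1 -0.060 to 0.075, Sohlh2 -0.043 to 0.049 and Kit -0.22 to 0.12. For the inhibitor difference in wild type it gave Sohlh2 -0.035 to 0.035 and Kit -0.055 to 0.28. For the inhibitor difference in the knockout it gave Sohlh2 -0.072 to 0.086 and Kit -0.023 to 0.29. For the interaction it gave Neurog3 -0.099 to 0.36, Sox3 -0.17 to 0.090, Sohlh2 -0.067 to 0.091 and Kit -0.19 to 0.18. For the genotype difference over both treatments it gave Sox3 -0.11 to 0.019, Sohlh1 -0.093 to 0.0017, Sohlh2 -0.043 to 0.035 and Kit -0.17 to 0.026. For the inhibitor difference over both genotypes it gave Sohlh2 -0.039 to 0.040. The inhibitor difference over both genotypes kept its direction for the other 5 genes, with ranges of 0.39 to 0.62 for Neurog3, 0.15 to 0.30 for Sox3, 0.20 to 0.30 for Rarg, 0.12 to 0.21 for Sohlh1 and 0.038 to 0.23 for Kit, the lowest without WT_PD 4. Beside the 3 pairs of genes past the threshold, the count was 1 with group means removed. There r fell from 0.728 to 0.623 for Rarg and Sohlh1 and from 0.678 to 0.601 for Sox3 and Rarg. The count was 0 among the lower 8 library numbers and 1 among the higher 8, each with fewer libraries, and 3 with pseudocounts of 0.1 and 1.

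Replicate numbers did not pair the libraries. Over 24 same-number pairs the correlation of deviations from the group means ran from -0.53 to 0.73, with 10 above 0.1 and a median of -0.05, beside -0.03 for other numbers. With the replicate block, 0 of the 6 genes were called in any comparison, and Neurog3 over both genotypes was 0.50 (SE 0.15, unadjusted p 0.00594). Depth limits Neurog3 most, at 109 reads in its lowest library.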
